A study of Mus musculus with 16 samples.

Results

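The 15 genes described here are the mitochondrially encoded genes of microglia/macrophages from the mouse brain, chosen as every gene of the count table whose symbol starts with mt-. They are 15 of the 32166 genes counted. They comprise the 2 ribosomal RNA genes and the 13 protein-coding genes of the mitochondrial genome (mtDNA), and none of its 22 transfer RNA genes was among the genes counted.

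MtDNA is a small circular genome that each cell holds in many copies. It is read from both strands into long precursors, from which the ribosomal RNAs (12S, mt-Rnr1, and 16S, mt-Rnr2) and the messenger RNAs are cut, often at the transfer RNAs that lie between them. Its proteins are core subunits of the respiratory chain, in complex I (mt-Nd1 to mt-Nd6 and mt-Nd4l), complex III (mt-Cytb), complex IV (mt-Co1 to mt-Co3) and ATP synthase, or complex V (mt-Atp6 and mt-Atp8). All other subunits of these complexes are encoded in the nucleus. Microglia are the resident immune cells of the brain. Other macrophages lie at its borders, and some enter it after injury.

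The libraries came from C57BL/6 mice of 10 to 12 weeks, labelled as brain microglia, in 4 groups. Vdr-cKO mice carried Cx3cr1 CreER/+ and 2 floxed alleles of Vdr, the vitamin D receptor gene, and control mice were Vdr f/f littermates without the Cre allele, and both received tamoxifen, which activates this Cre. The mice had transient middle cerebral artery occlusion (MCAO), a model of ischemic stroke, or a sham operation, and cells were taken on day 3. There were 5 libraries of sham control, 3 of sham Vdr-cKO, 4 of MCAO control and 4 of MCAO Vdr-cKO mice. Cre under the Cx3cr1 promoter acts in microglia and in other cells of the mononuclear lineage, and it replaces 1 allele of Cx3cr1. The sources do not say whether 1 library is 1 mouse, so the p-values measure the spread between libraries, part of which may be technical. The study's methods name CD11b microbeads and poly-A RNA, while the labels name a kit that removes ribosomal RNA. Which of them applies is not known here, and either step acts on the 12S and 16S RNAs.

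Libraries held 13795946 to 17836796 counts. Microglial marker genes were at 15540.2 to 36381 summed CPM (reads of a gene relative to all reads of its library, scaled by library size and TMM factors) and none of the 10 was at 0. Monocyte markers (8 genes) ran from 89.2 to 214 summed CPM after sham surgery and from 351 to 1946 after MCAO. Of 12 listed genes for RNAs without a poly-A tail 6 were among the genes counted, at 0 to 1.06 summed CPM per library. Whether this comes from the RNA preparation was not tested. Vdr had 1 to 119 counts per library and was not lower in the Vdr-cKO libraries, where counts over a whole gene include exons that the deletion leaves, so they do not check the deletion. Sham control replicates 2, 4 and 5 stood apart from the other 5 sham libraries on the third principal component (-11.1 to -7.45 against 0.41 to 7.58). They were the sham control libraries with the least mtDNA-encoded RNA. The names of all sham control columns also carry an ending that those of no other group carry. What the ending marks is not known here, and it cannot be told apart from the group itself. This bears on the comparisons that use sham control, namely genotype after sham, surgery in control and the interaction.

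The 15 genes lie on MT of GRCm38, with positions equal to those of GENCODE release M21. Going round the genome from mt-Rnr1 (70 to 1024) and mt-Rnr2 (1094 to 2675) come mt-Nd1 (2751 to 3707), mt-Nd2 (3914 to 4951) and mt-Co1 (5328 to 6872). Next are mt-Co2 (7013 to 7696), mt-Atp8 (7766 to 7969), mt-Atp6 (7927 to 8607), mt-Co3 (8607 to 9390) and mt-Nd3 (9459 to 9806). They are followed by mt-Nd4l (9877 to 10173), mt-Nd4 (10167 to 11544), mt-Nd5 (11742 to 13565), mt-Nd6 (13552 to 14070) and mt-Cytb (14145 to 15288). Only mt-Nd6 is on the minus strand. Each is a single exon. Some neighbours overlap, by 43 bases for mt-Atp8 and mt-Atp6, 14 bases for mt-Nd5 and mt-Nd6, 7 bases for mt-Nd4l and mt-Nd4 and 1 base for mt-Atp6 and mt-Co3. Whether the counting used strand, and how it treated reads in 2 genes, is not stated, so mt-Nd6 counts cannot be told apart from RNA of the other strand.

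The 12S gene is shown by its first 120 bases, since it was the 1 member that rose in Vdr-cKO after MCAO (chrM:70-189, plus strand, no capitals). The end of mt-Atp8 and start of mt-Atp6 are shown for their overlap, with the bases that belong to both genes in capitals (chrM:7897-7999, plus strand).
mt-Rnr1: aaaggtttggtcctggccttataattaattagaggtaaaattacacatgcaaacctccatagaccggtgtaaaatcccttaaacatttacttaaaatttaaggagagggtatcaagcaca
mt-Atp8 and mt-Atp6: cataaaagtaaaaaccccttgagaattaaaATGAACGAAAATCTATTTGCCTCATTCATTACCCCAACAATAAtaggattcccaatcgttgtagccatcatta

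A stretch of chromosome 1 holds a nuclear copy of mtDNA from within mt-Co1 to within mt-Nd4, annotated as 7 pseudogenes between 24611535 and 24616197 on the minus strand. The copies of mt-Co2 (Gm28661), mt-Atp6 (Gm10925), mt-Co3 (Gm28437), mt-Nd3 (Gm28438), mt-Nd4l (Gm10222) and 876 of the 1378 bases of mt-Nd4 (Gm28439) had no mismatch. The copy of the last 483 bases of mt-Co1 (Gm29216) had 1 mismatch. A read from a stretch with no mismatch cannot be assigned to mtDNA or chromosome 1 by its sequence, while a read over the 1 mismatch of Gm29216 can. The pairs below show this for mt-Co3 and its copy (chrM:8607-8726, plus strand, and chr1:24613852-24613971, minus strand), which are alike in all 120 bases, and for mt-Co1 and its copy around their 1 mismatch, in capitals (chrM:6390-6509, plus strand, and chr1:24616069-24616188, minus strand).
mt-Co3: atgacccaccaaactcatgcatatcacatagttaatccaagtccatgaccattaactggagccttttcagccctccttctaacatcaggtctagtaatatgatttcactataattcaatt
Gm28437: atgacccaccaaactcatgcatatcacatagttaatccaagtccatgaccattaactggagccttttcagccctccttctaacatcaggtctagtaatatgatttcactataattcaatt
mt-Co1: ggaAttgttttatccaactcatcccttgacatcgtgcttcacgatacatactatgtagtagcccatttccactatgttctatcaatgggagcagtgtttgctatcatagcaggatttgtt
Gm29216: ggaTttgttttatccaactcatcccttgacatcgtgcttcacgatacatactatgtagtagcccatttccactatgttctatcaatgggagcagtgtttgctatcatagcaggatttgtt

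The levels per length fell into separate classes along the genome. Averaged over the 16 libraries, mt-Co1 was at 4122 CPM per kb of gene length and mt-Cytb at 2266. The complex I genes mt-Nd1, mt-Nd2, mt-Nd6, mt-Nd5 and mt-Nd4 were between 1789.8 and 789.9 CPM per kb, in that order. The rRNA genes were at 172 (mt-Rnr1) and 194 (mt-Rnr2) CPM per kb, after a library preparation that selects against ribosomal RNA or for poly-A tails. The genes from mt-Co2 to mt-Nd4l were far lower. They lie within the copied stretch, whose ends are in mt-Co1 and mt-Nd4, genes that are copied in part and were not low. Among them mt-Co2 was at 52.4, mt-Co3 at 26.7, mt-Atp6 at 25.7, mt-Nd4l at 13.1, mt-Nd3 at 11.7 and mt-Atp8 at 1.07 CPM per kb. Of all 100-base stretches of mt-Co2, mt-Atp6, mt-Co3, mt-Nd3 and mt-Nd4l, 97.59% to 99.85% stand in another annotated transcript too. The share was 60.75% for mt-Nd4, 30.84% for mt-Co1, 3.195% for mt-Nd2 and 0 for the other 7 genes. The search covered annotated transcripts alone, and the bases of chromosome 1 between the copies of mt-Co2 and mt-Atp6, where a copy of mt-Atp8 would lie, have no annotated transcript, so the 0 of mt-Atp8 does not show that its sequence is unique. How reads with several matches were counted is not stated, and its part in the low levels was not tested. The levels of mt-Co2, mt-Atp8, mt-Atp6, mt-Co3, mt-Nd3 and mt-Nd4l, and in part of mt-Nd4 and mt-Co1, are therefore uncertain. mt-Atp8 had 1 to 7 counts per library and did not pass the filter on low counts, so 14 of the 15 genes were tested in every comparison.

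**Figure D1:**
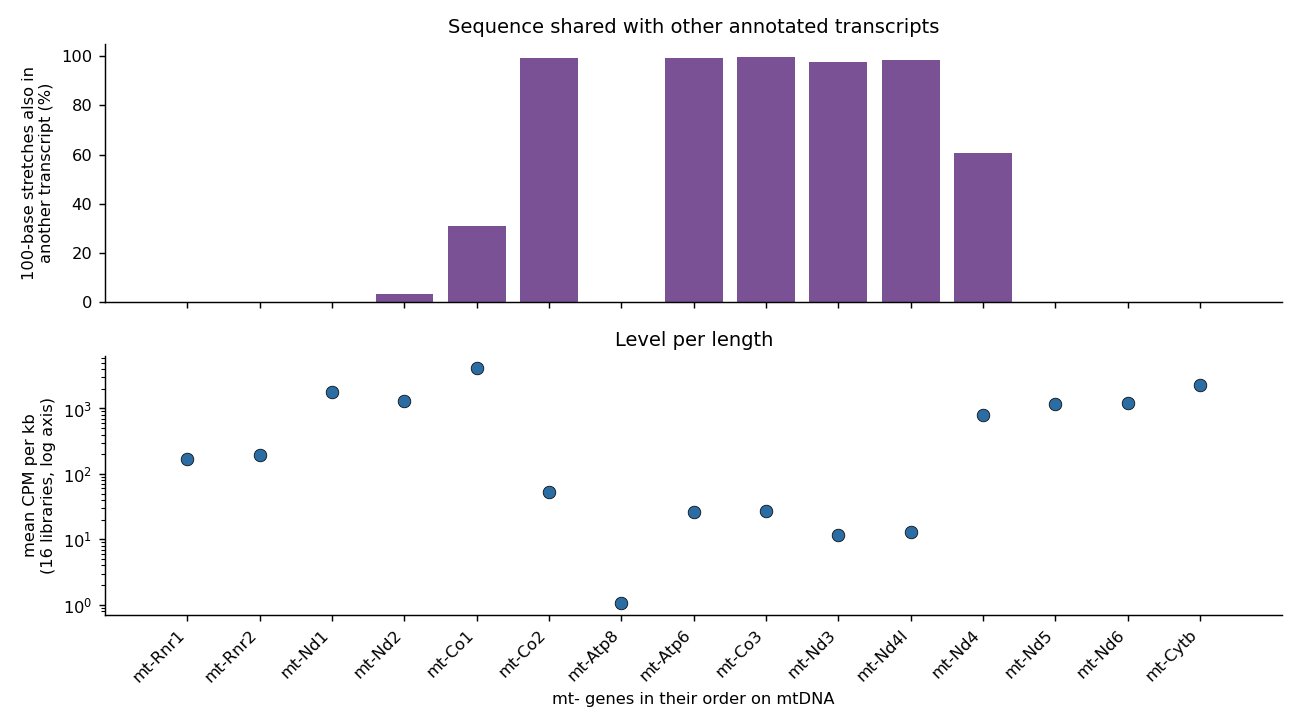
Upper panel, the percent of all 100-base stretches of each mt- gene that also occur in another annotated transcript (chromosome 1 has none annotated where a copy of mt-Atp8 would lie); lower panel, the mean level over 16 libraries in CPM per kb of gene length, on a log axis. Genes are in their order on mtDNA, and those from mt-Co2 to mt-Nd4l are at 1.07 to 52.4 CPM per kb, below all other genes.

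The 15 genes together took 1.08% to 2.23% of the counts of a library. Their share was 2.04%, 1.75%, 2.19% and 2.08% in the MCAO control libraries and 1.14%, 1.31%, 1.197% and 1.54% in the MCAO Vdr-cKO libraries. The groups did not overlap. Their means were 1.30% ± 0.174 (SD, n = 4) for Vdr-cKO libraries, against 2.01% ± 0.188 (SD, n = 4) for control libraries. After sham surgery the order of the means was the opposite and the groups overlapped. The shares were 1.57%, 1.16%, 2.13%, 1.08% and 1.32% in control and 1.99%, 2.23% and 1.45% in Vdr-cKO, with means of 1.45% ± 0.421 (SD, n = 5) and 1.89% ± 0.401 (SD, n = 3). In bulk libraries such a share cannot tell less mitochondrial RNA per cell from fewer cells of a type that has much of it.

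The makeup of these counts differed between groups as well. mt-Co1, the catalytic core of cytochrome c oxidase, made up 32.5% to 35.7% of the mtDNA-encoded counts in the sham libraries, 40.7% to 43.7% in MCAO control and 43.2% to 46.5% in MCAO Vdr-cKO libraries. mt-Nd2, a membrane subunit of complex I, made up 8.74% to 10.98% in sham libraries and 5.97% to 7.86% after MCAO. For both genes the sham and MCAO libraries did not overlap. The rRNAs made up 1.69% to 2.29% of the mtDNA-encoded counts after sham surgery, 2.36% to 2.99% in MCAO control and 4.37% to 5.82% in MCAO Vdr-cKO libraries.

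The ratio of 12S to 16S counts separated the groups further. It was 0.326, 0.306, 0.277, 0.236 and 0.256 in sham control and 0.281, 0.232 and 0.225 in sham Vdr-cKO libraries. It was 0.539, 0.550, 0.406 and 0.370 in MCAO control and 0.993, 0.951, 0.971 and 1.05 in MCAO Vdr-cKO libraries. The sham groups overlapped, every MCAO library lay above every sham library, and every MCAO Vdr-cKO library lay above every MCAO control library. The mean ratios after MCAO were 0.466 ± 0.0915 (SD, n = 4) for the control libraries, against 0.992 ± 0.0435 (SD, n = 4) for the Vdr-cKO libraries. Both rRNAs together were 0.0237% to 0.0762% of all counts, after a preparation that acts on them. The ratio of these counts may therefore differ from that in the cells.

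**Figure D2:**
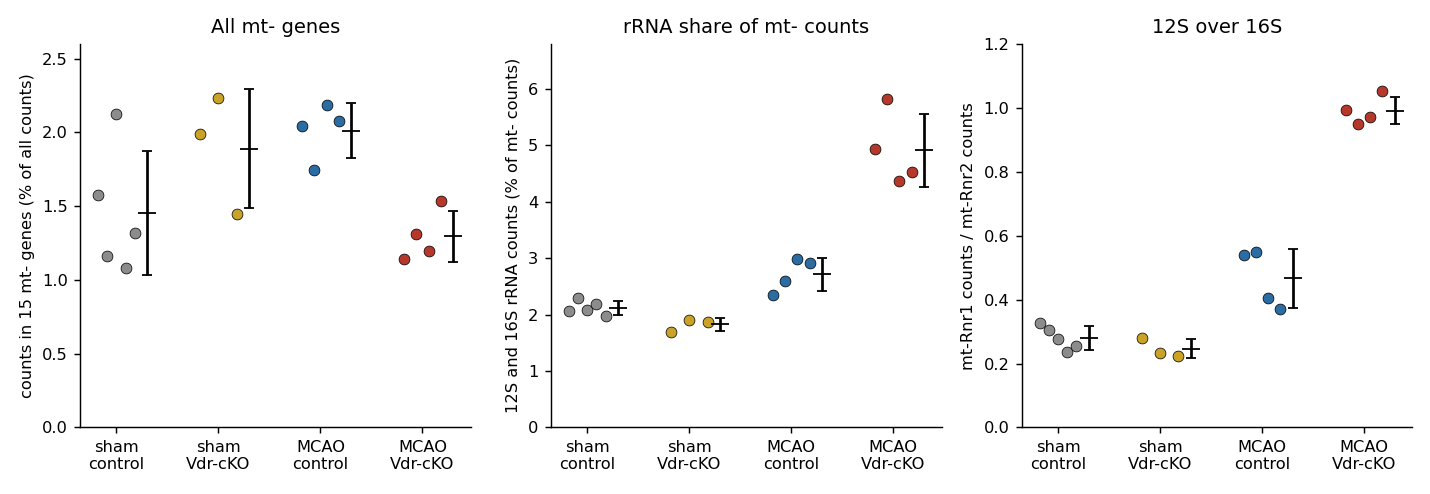
Each point is 1 library, in order of its replicate number within the group, and the bar beside the points is the mean ± SD. Left, all mtDNA-encoded counts in percent of all counts of the library; middle, 12S and 16S rRNA in percent of the mtDNA-encoded counts; right, the ratio of 12S to 16S counts, which is 0.951 to 1.05 in MCAO Vdr-cKO and at most 0.550 in every other library.

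The comparison of Vdr-cKO with control after MCAO asks how the genotypes differ after ischemia. Loss of Vdr cannot be told apart here from the presence of Cre and the loss of 1 allele of Cx3cr1. The mtDNA-encoded messenger RNAs were lower in Vdr-cKO, with 7 of the 12 tested protein-coding genes falling, while 12S rRNA rose 1.87-fold and 16S rRNA did not pass the test. By edgeR's quasi-likelihood test with Benjamini-Hochberg adjustment over 15286 genes, 1 of 14 genes rose and 7 fell at an adjusted p under 0.05. Of all genes tested, 3.24% rose and 1.64% fell. All 12 protein-coding genes had a log2 fold change below 0, with a median of -0.72, against 0.01 over all genes tested. The groups did not overlap for 1 gene that was higher and 8 that were lower in Vdr-cKO, against 6.72% and 6.28% of all genes.

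mt-Rnr1, the 12S RNA of the small mitochondrial ribosomal subunit, was at 179, 174, 206 and 179.8 CPM in MCAO control and at 324, 400.3, 272 and 391 CPM in MCAO Vdr-cKO libraries. Every Vdr-cKO library was above every control library. The log2 fold change was 0.90 (SE 0.12, adjusted p = 0.00117 from edgeR). mt-Rnr2, the 16S RNA of the large subunit, was at 332, 316, 507 and 486 CPM in control and at 326, 421, 281 and 372 CPM in Vdr-cKO libraries. These groups overlapped, and the log2 fold change was -0.24 (SE 0.17, adjusted p = 0.497 from edgeR). The 2 rRNAs lie side by side on mtDNA and are cut from the same precursor.

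Of the 7 complex I genes, 4 fell. mt-Nd4 was at 1421, 1203, 1569 and 1531 CPM in control and at 789, 714, 732 and 1023 CPM in Vdr-cKO libraries. All Vdr-cKO values were lower than all control values, and the log2 fold change was -0.82 (SE 0.13, adjusted p = 0.00364 from edgeR). mt-Nd5, the largest of these genes, was at 2562, 2217, 3158 and 3121 CPM in control and at 1425, 1697, 1295 and 1860.0 CPM in Vdr-cKO libraries. Its groups did not overlap either, with a log2 fold change of -0.82 (SE 0.15, adjusted p = 0.00712 from edgeR). mt-Nd1 was at 1844 to 2308 CPM in control and at 1129 to 1715 CPM in Vdr-cKO (log2 fold change -0.68, SE 0.14, adjusted p = 0.0139 from edgeR). mt-Nd2 was at 1184 to 1832 and 785 to 1157 CPM (log2 fold change -0.76, SE 0.16, adjusted p = 0.0183 from edgeR). For both genes every Vdr-cKO library was below every control library. mt-Nd6, the gene on the other strand, was at 755, 577, 946 and 979 CPM in control and at 416, 577, 354 and 591 CPM in Vdr-cKO libraries, groups that overlap. Its log2 fold change of -0.76 (SE 0.20) missed the threshold (adjusted p = 0.0511 from edgeR). The short genes mt-Nd4l and mt-Nd3, with 34 to 92 counts per library, had log2 fold changes of -0.59 (adjusted p = 0.188 from edgeR) and -0.38 (adjusted p = 0.456 from edgeR).

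mt-Cytb, the cytochrome b of complex III, was at 3506, 2955, 3452 and 3162 CPM in MCAO control and at 1842, 1565, 1847 and 2382 CPM in MCAO Vdr-cKO libraries. The groups were apart and the log2 fold change was -0.78 (SE 0.13, adjusted p = 0.00443 from edgeR). In complex IV, mt-Co1 was at 9031, 8216, 9814 and 9309 CPM in control and at 5806, 6568, 5808 and 7279 CPM in Vdr-cKO libraries. Its groups did not overlap and its log2 fold change was -0.52 (SE 0.11, adjusted p = 0.0226 from edgeR). mt-Co3 was at 29.6, 50.4, 26.1 and 24.1 CPM in control and at 16.05, 18.7, 14.5 and 18.9 CPM in Vdr-cKO (log2 fold change -0.94, SE 0.21, adjusted p = 0.0285 from edgeR). Control replicate 2 was the highest by far, and the groups were apart without it too. The log2 fold change of mt-Co3 ran from -1.06 to -0.65 over the 20 other fits of this comparison. mt-Co2 had groups that did not overlap (42.90 to 56.6 and 30.6 to 42.85 CPM) but missed the threshold (log2 fold change -0.41, adjusted p = 0.0808 from edgeR). In ATP synthase, mt-Atp6 was at 19.3 to 30.03 CPM in control and at 13.3 to 20.02 CPM in Vdr-cKO (log2 fold change -0.63, adjusted p = 0.0511 from edgeR). mt-Atp8 was at 0.198 to 0.422 and at 0.0640 to 0.267 CPM.

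**Figure D3:**
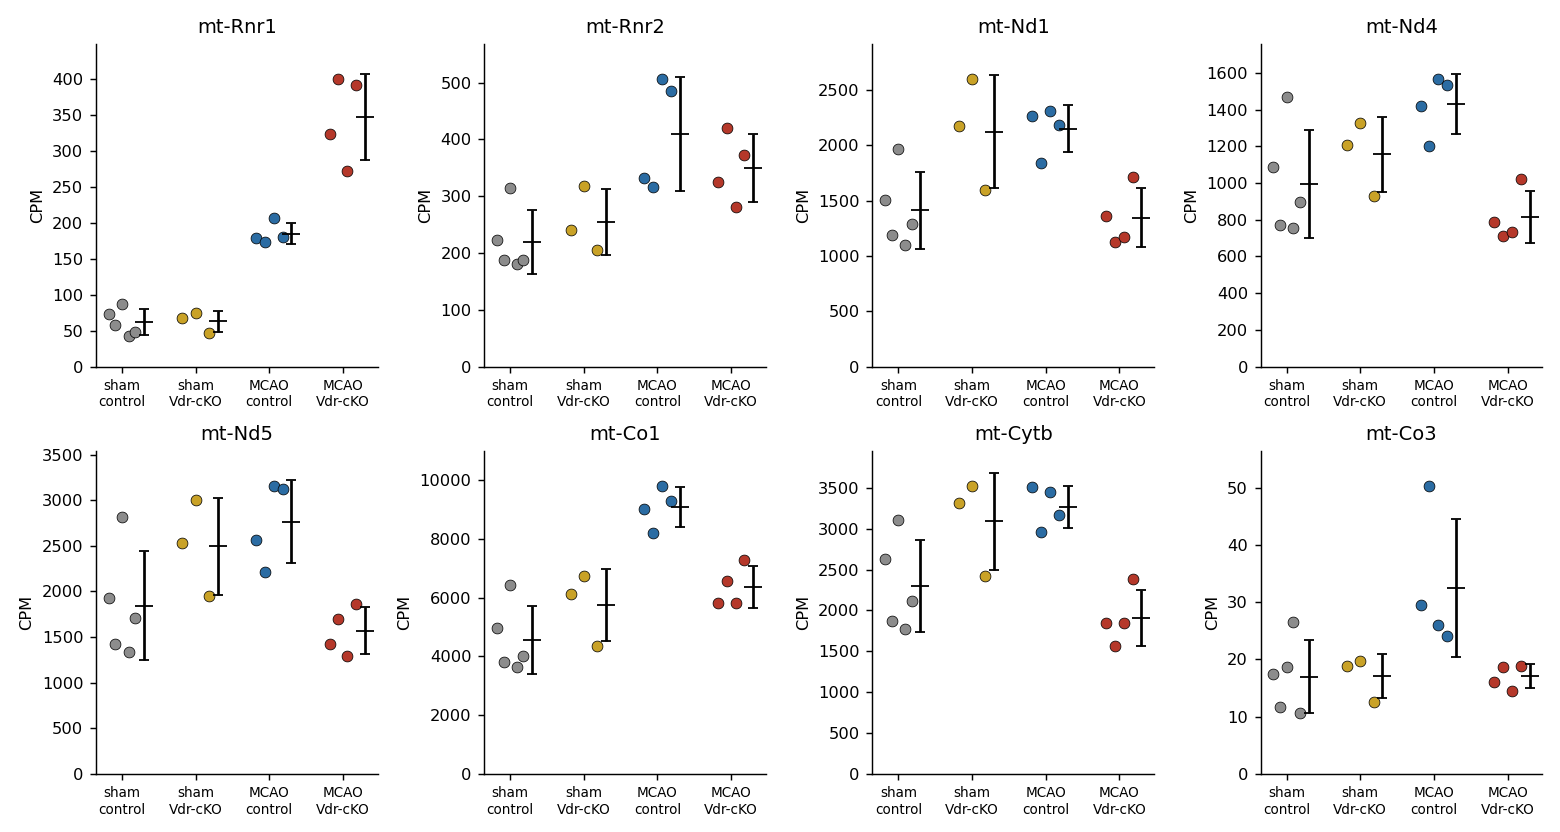
Levels in CPM of both rRNAs and of 6 protein-coding genes, with 1 point per library in order of replicate number and the mean ± SD beside each group. In MCAO Vdr-cKO libraries mt-Rnr1 stands at 272 to 400.3 CPM, above every other library, while the protein-coding genes lie below MCAO control.

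mt-Rnr1, mt-Nd4, mt-Nd5 and mt-Cytb were called in the same direction in all 20 other fits of this comparison. The other 4 calls each rested on single libraries, since mt-Nd1 lost its call without MCAO control replicate 3 or 4, mt-Nd2 and mt-Co1 also without MCAO Vdr-cKO replicate 3, and mt-Co3 without Vdr-cKO replicate 1 or 3 (adjusted p 0.0501 to 0.0863 from edgeR). Calls were gained for mt-Atp6 and mt-Nd6 without MCAO Vdr-cKO replicate 4 or MCAO control replicate 2, and for mt-Co2 without Vdr-cKO replicate 4 (adjusted p 0.0216 to 0.0412 from edgeR). DESeq2 called these 3 genes too, and mt-Atp6 and mt-Nd6 were also called with no filter and with nuclear, total count or upper quartile scaling. In the fit of all 16 libraries the calls of mt-Nd2 and mt-Co1 were lost. mt-Atp6 was called with the replicate block as well, and mt-Atp6 and mt-Nd4l with the chromosome 1 copies added. The number of genes that fell was 4 to 10 with 1 library left out. No member was also past a log2 fold change of 1, against 1.67% of all genes higher and 0.0785% lower.

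Other features of the MCAO libraries moved with genotype. The summed monocyte markers were 776, 351, 432 and 451 CPM in MCAO control and 1946, 1673, 741 and 761 CPM in MCAO Vdr-cKO libraries, and 2 of 8 genes, Ly6c2 (log2 fold change 3.58) and Plac8 (2.66), rose. All 8 monocyte markers had a log2 fold change above 0, with a median of 1.00. The summed microglial markers were 20809, 20124, 21979.6 and 19996 CPM in control and 15540.2, 15788, 18270.2 and 20386 CPM in Vdr-cKO libraries. Cx3cr1, which is also the gene that carries Cre, was the 1 of 10 that fell (log2 fold change -1.29, adjusted p = 4.04e-05 from edgeR). Of the 10 microglial markers, 8 had a log2 fold change below 0 and 2 above 0, with a median of -0.19. Of 6 border macrophage markers 2 fell, Mrc1 (-0.72) and F13a1 (-0.68), while 2 had a log2 fold change above 0. The sum of the 6 was 1292 to 1574 CPM in control and 838 to 1023 CPM in Vdr-cKO libraries, without overlap. Of 6 tested oligodendrocyte markers Cnp alone rose (0.78), with 3 of the 6 above 0, 3 below 0 and a median of 0.07. The summed level of the list was 139 to 154 CPM in control and 167 to 213 CPM in Vdr-cKO libraries, without overlap. The summed T and NK cell markers were 2.71 to 5.56 CPM in control and 5.93 to 19.7 CPM in Vdr-cKO libraries, and the 1 gene of them that was tested, Cd4, was not called (0.87, adjusted p = 0.113 from edgeR). Of 15 genes of dissociation and heat stress, Hspa1a rose (0.98, adjusted p = 0.0398 from edgeR). Their sum was 7694 and 8159 CPM in replicates 1 and 2 of MCAO Vdr-cKO, above every other library, and 5056 and 4295 CPM in replicates 3 and 4, within the 4197 to 6264 CPM of MCAO control. Replicates 1 and 2 of MCAO Vdr-cKO thus had the most monocyte marker RNA and the most stress gene RNA. The part of these cells and genes in the mtDNA-encoded values was not tested. A fit that left out replicates 1 and 2 of MCAO Vdr-cKO was chosen after the values were seen. In it 3 protein-coding genes (mt-Nd4, mt-Nd5 and mt-Cytb) still fell and mt-Rnr1 still rose.

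Vdr-cKO was next compared with control after sham surgery, in the absence of ischemia. No mtDNA-encoded gene passed the test. By edgeR over 16425 genes 0 of 14 were called, against 0.444% of all genes higher and 0.0244% lower, and DESeq2 and limma-voom called 0 as well. With a log2 fold change past 1 in addition, 0 members and 0.359% (higher) and 0.0122% (lower) of all genes were called. The groups overlapped for all 14 genes, against 5.09% of genes higher and 2.65% lower without overlap. At an unadjusted p under 0.05 edgeR gave 1 gene, mt-Nd1. It was at 1507, 1189.9, 1968, 1103 and 1292 CPM in control and at 2176, 2604 and 1593 CPM in Vdr-cKO libraries, which overlap (log2 fold change 0.55, SE 0.20, adjusted p = 0.355 from edgeR). mt-Cytb had a log2 fold change of 0.39 (SE 0.19, adjusted p = 0.468 from edgeR). The 12 protein-coding genes ran from -0.02 to 0.55, with a median of 0.32 and 10 of them above 0, against a median of -0.02 over all genes tested. mt-Rnr1 was at 72.7, 57.5, 87.3, 42.6 and 48.0 CPM in control and at 67.7, 74.1 and 46.3 CPM in Vdr-cKO libraries, with a log2 fold change of -0.01 (SE 0.22, adjusted p = 0.993 from edgeR). Without sham control replicates 2, 4 and 5 the median of the protein-coding genes was -0.02.

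MCAO was then compared with sham in control mice, which asks how the RNA of the collected cells differed with ischemia when Vdr is intact. These comparisons use the same libraries as the ones above. In control mice 12 of 14 genes rose, both rRNAs and 10 of 12 messenger RNAs. This test called many genes, with 31.2% of 16089 genes higher and 32.3% lower. Of 10 microglial markers 8 fell and 1 rose, and of 8 monocyte markers 7 rose and 0 fell. A change within the cells therefore cannot be told apart from a change in the mix of cells collected. The complex IV genes and the rRNAs had the highest values. mt-Rnr1 was at 42.6 to 87.3 CPM in sham and at 174 to 206 CPM in MCAO libraries (log2 fold change 1.58, SE 0.18, adjusted p = 7.63e-06 from edgeR). mt-Rnr2 was at 181 to 315 and at 316 to 507 CPM (0.90, SE 0.19, adjusted p = 0.00106 from edgeR). mt-Co1 was at 4960.2, 3795, 6419, 3635 and 4029 CPM in sham and at 8216 to 9814 CPM after MCAO (0.99, SE 0.15, adjusted p = 0.000129 from edgeR). For these 3 genes, mt-Co2 (0.86) and mt-Nd3 (0.53), every MCAO library was above every sham library, against 27.5% of all genes. No member was lower without overlap, against 25.4%. Past a log2 fold change of 1 was mt-Rnr1 alone, against 12.8% of genes higher and 14.8% lower.

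The other called genes overlapped between the surgeries. Their log2 fold changes were 0.93 for mt-Co3 and 0.78 for mt-Atp6, and 0.60 for mt-Nd1, 0.58 for mt-Nd5, 0.57 for mt-Nd6, 0.52 for mt-Nd4 and 0.50 for mt-Cytb, with adjusted p of 0.00397 to 0.0476 from edgeR. mt-Nd2 was at 0.30 (adjusted p = 0.264 from edgeR) and mt-Nd4l at 0.23 (adjusted p = 0.490 from edgeR). The median of the 12 protein-coding genes was 0.57, against -0.05 over all genes tested. The count depended on the scaling, since 5 genes rose with total counts (mt-Rnr1, mt-Rnr2, mt-Co1, mt-Co2 and mt-Co3) and 7 with upper quartile scaling (mt-Nd1 and mt-Atp6 in addition). Without sham control replicates 2, 4 and 5, the libraries with the least mtDNA-encoded RNA, 6 genes rose. Single libraries decided the calls of mt-Nd3, mt-Nd4, mt-Nd5 and mt-Nd6 (adjusted p 0.0513 to 0.127 from edgeR without MCAO control replicate 1, 2, 3 or 4 or sham control replicate 1, 2, 4 or 5), and mt-Nd2 was called without sham control replicate 3 (0.56, adjusted p = 0.00691 from edgeR).

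In Vdr-cKO mice the calls for the same surgery were others. Both rRNAs rose, 6 of 12 tested messenger RNAs fell, and no messenger RNA rose. Calls in 2 separate fits do not test a difference between the genotypes. The interaction test below called 4 genes for it, and none of these without sham control replicates 2, 4 and 5. Of 16357 genes tested by edgeR, 29.3% were higher and 28.8% lower after MCAO. Of 10 microglial markers 8 fell and 0 rose, and all 8 monocyte markers rose. The mix of cells cannot be told apart from changes within them here either. mt-Rnr1 was at 67.7, 74.1 and 46.3 CPM in sham and at 272 to 400.3 CPM in MCAO libraries, a log2 fold change of 2.47 (SE 0.19, adjusted p = 2.30e-06 from edgeR). mt-Rnr2 was at 241, 319 and 206 CPM in sham and at 281 to 421 CPM after MCAO, groups that overlap (0.45, SE 0.17, adjusted p = 0.0372 from edgeR).

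The 6 genes that fell were 5 of complex I and mt-Cytb. mt-Nd2 was at 1744, 2069.7 and 1303 CPM in sham and at 785 to 1157 CPM in MCAO libraries, with no overlap (log2 fold change -0.87, SE 0.17, adjusted p = 0.00151 from edgeR). mt-Cytb was at 3320.1, 3525 and 2418 CPM in sham and at 1565 to 2382 CPM after MCAO (-0.69, SE 0.17, adjusted p = 0.00459 from edgeR). The others were mt-Nd5 (-0.67), mt-Nd1 (-0.66), mt-Nd6 (-0.56) and mt-Nd4 (-0.50), with adjusted p of 0.00555 to 0.0272 from edgeR. mt-Nd4l had a log2 fold change of -0.51 (adjusted p = 0.0889 from edgeR). Groups did not overlap for 4 genes that were lower (mt-Nd2, mt-Nd5, mt-Cytb and mt-Nd4l) and 1 that was higher, against 30.8% and 29.9% of all genes. The genes of complexes IV and V did not pass the test. mt-Co1 was at 6134, 6722 and 4369 CPM in sham and at 5806 to 7279 CPM in MCAO libraries, a log2 fold change of 0.15 with TMM scaling (SE 0.16, adjusted p = 0.449 from edgeR) that was below 0 with total counts or upper quartile scaling. mt-Co2, mt-Co3, mt-Atp6 and mt-Nd3 had log2 fold changes of 0.00 to 0.14 in size. The calls of mt-Nd1, mt-Nd4, mt-Nd6 and mt-Rnr2 were each lost without 1 library, with adjusted p of 0.0566 to 0.138 from edgeR. In Vdr-cKO mice too mt-Rnr1 alone was past a log2 fold change of 1, against 14.4% of genes higher and 14.9% lower. The libraries that decided calls were any of the 3 of sham Vdr-cKO for 1 or more of the genes, and MCAO Vdr-cKO replicates 1 to 4.

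**Figure D4:**
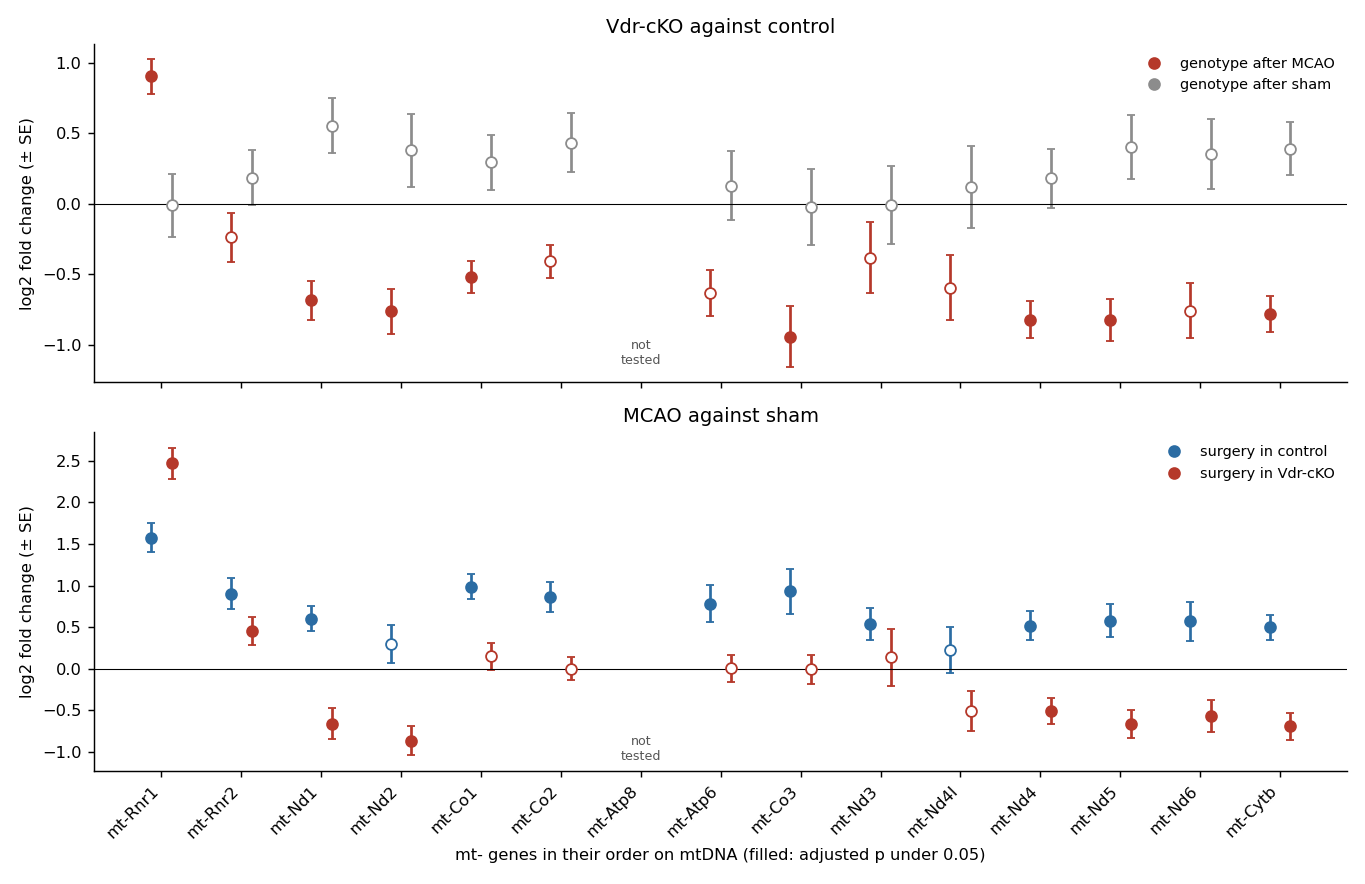
Log2 fold changes with their standard errors for the 14 tested genes, in their order on mtDNA; filled points have an adjusted p under 0.05 from edgeR. Upper panel, Vdr-cKO against control after MCAO and after sham surgery; lower panel, MCAO against sham in control and in Vdr-cKO mice, where mt-Rnr1 is highest in both and the messenger RNAs are above 0 in control.

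The difference between the 2 genotype effects was tested as the interaction of genotype and surgery over all 16 libraries. The change with genotype was lower after MCAO than after sham for 4 of 14 genes, against 1.15% of 17335 genes lower and 1.4% higher. All 4 were past 1 in size, against 0.588% of genes lower and 0.917% higher. These were mt-Nd1 (difference of log2 fold changes -1.27, SE 0.26, adjusted p = 0.00874 from edgeR), mt-Cytb (-1.20, SE 0.24, adjusted p = 0.00869), mt-Nd5 (-1.25, SE 0.29, adjusted p = 0.0229) and mt-Nd4 (-1.03, SE 0.26, adjusted p = 0.0413). All 12 protein-coding genes were below 0, with a median of -0.99, against -0.01 over all genes tested. mt-Rnr1 was at 0.88 (SE 0.28, adjusted p = 0.113 from edgeR) and mt-Rnr2 at -0.45 (adjusted p = 0.487 from edgeR). The remaining 8 protein-coding genes had values from -1.17 (mt-Nd2, adjusted p = 0.0673 from edgeR) to -0.40 (mt-Nd3). The call of mt-Nd5 was lost without replicate 3 of MCAO Vdr-cKO, replicates 3 and 4 of MCAO control, and replicates 1 and 2 of sham Vdr-cKO, and that of mt-Nd4 without any of these or of MCAO Vdr-cKO replicates 1 and 2, MCAO control replicate 1 and sham control replicates 2, 4 and 5, left out singly (adjusted p 0.0502 to 0.137 from edgeR). Calls were gained for mt-Nd2, mt-Co1, mt-Co2 and mt-Nd6 without sham control replicate 3 (8 genes lower), for mt-Nd2 and mt-Co1 without sham Vdr-cKO replicate 3, for mt-Nd2 without MCAO control replicate 2 and for mt-Co2 without sham control replicate 1. Without sham control replicates 2, 4 and 5 no gene was lower and mt-Rnr1 was called (1.26, adjusted p = 0.0149 from edgeR). Without MCAO Vdr-cKO replicates 1 and 2, in a fit chosen after the values were seen, no gene was called.

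The nuclear-encoded partners of these subunits were not called for genotype. Of 72 nuclear genes for subunits of complexes I, III, IV and V, 0 were called in either direction after MCAO, against the 3.24% higher and 1.64% lower of all genes. Their median was 0.08 on the log2 scale, and 54 lay above 0. The smallest adjusted p values were those of Uqcrq of complex III (0.49, adjusted p = 0.0700 from edgeR), Cox5b of complex IV (0.51, adjusted p = 0.0760 from edgeR) and Ndufv3 of complex I (0.27, adjusted p = 0.0788 from edgeR). Each of the 12 mtDNA-encoded subunits had a lower value (-0.94 to -0.38) than each of the 72 nuclear ones (-0.24 to 0.54). After sham surgery 0 of 72 were called too, with a median of 0.18.

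With surgery the nuclear subunits changed alike in direction in both genotypes. In control mice 56 of 72 rose and 1 fell (median 0.62), against 31.2% and 32.3% of all genes, among them all 11 of complex IV and 15 of 16 of complex V. In Vdr-cKO mice 53 of 72 rose and 0 fell (median 0.51), against 29.3% and 28.8% of all genes and against 0 of 12 mtDNA-encoded subunits that rose and 6 that fell. By complex the medians in Vdr-cKO mice were 0.50 for complex I, 0.42 for complex III, 0.74 for complex IV and 0.54 for complex V. In the interaction 0 of the 72 were called, with a median of -0.10. Of the 77 nuclear genes for proteins of the mitochondrial ribosome, 42 rose and 4 fell in control, 44 rose and 1 fell in Vdr-cKO mice, and 0 were called between genotypes after either surgery.

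**Figure D5:**
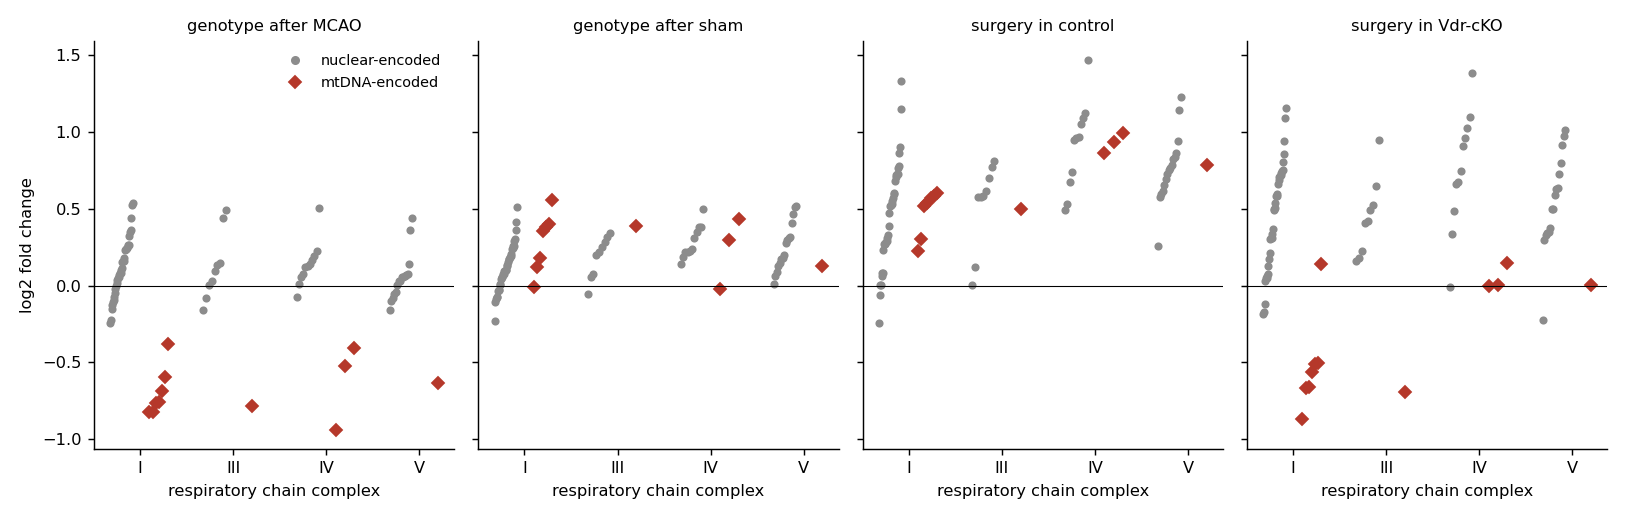
Log2 fold changes of nuclear-encoded (grey) and mtDNA-encoded (red) subunits of respiratory chain complexes I, III, IV and V in the 4 comparisons, with 1 point per gene. After MCAO all 12 mtDNA-encoded genes lie at -0.94 to -0.38 for genotype, while the nuclear ones lie at -0.24 to 0.54.

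Lists of genes that act on mtDNA and its RNA had few calls for genotype after MCAO, as had all genes, of which 3.24% were higher and 1.64% lower, so counts of 0 in lists this short are near that share. None of 9 tested genes of mtDNA transcription was called, and among them Tfb2m, a transcription factor, had the smallest adjusted p (-0.22, adjusted p = 0.338 from edgeR). None of 21 genes of RNA processing and modification was called, with Mto1, an enzyme of transfer RNA modification, first (-0.30, adjusted p = 0.0887 from edgeR). Of 16 genes of RNA stability and decay 0 were called. Pnpt1, a mitochondrial exoribonuclease, had a log2 fold change of 0.50 (adjusted p = 0.0841 from edgeR), and Lrpprc, which stabilises mitochondrial messenger RNAs, of -0.29 (adjusted p = 0.0902 from edgeR). Pnpt1 was at 40.9, 40.6, 38.6 and 40.2 CPM in control and at 71.3, 67.9, 42.1 and 47.5 CPM in Vdr-cKO libraries, each above each control. None of 15 translation factors (first Guf1, -0.31, adjusted p = 0.102 from edgeR), 10 regulators of biogenesis (first Gabpa, -0.26, adjusted p = 0.0674 from edgeR) and 19 genes of dynamics and mitophagy (first Sqstm1, 0.34, adjusted p = 0.0617 from edgeR) was called. After sham surgery 0 genes of these lists were called by edgeR, against 0.444% of all genes higher and 0.0244% lower.

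Among 15 genes of mtDNA replication and nucleotide supply 1 rose after MCAO. Cmpk2, a mitochondrial nucleotide kinase and an interferon-induced gene, was at 22.9, 16.5, 21.5 and 17.2 CPM in control and at 336, 146, 60.9 and 66.1 CPM in Vdr-cKO libraries. Replicates 1 and 2 of Vdr-cKO were highest, and all 4 were above control. The log2 fold change was 2.95 (SE 0.48, adjusted p = 0.00424 from edgeR). Of 9 tested genes that sense nucleic acids, including mitochondrial ones, or act with TLR9, 5 rose and 0 fell, with a median of 0.53. Zbp1, a sensor of left-handed nucleic acids, was at 49.5, 62.8, 52.5 and 48.1 CPM in control and at 438, 318, 213 and 246 CPM in Vdr-cKO (log2 fold change 2.50, SE 0.20, adjusted p = 4.53e-05 from edgeR). The RNA sensors Ddx58 (1.54, adjusted p = 0.000461 from edgeR) and Ifih1 (1.52, adjusted p = 0.00141 from edgeR) and the DNA sensor Cgas (0.55, adjusted p = 0.00210 from edgeR) rose too. Zbp1, Ddx58 and Ifih1 are interferon-induced genes as well.

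The chromosome 1 copies were counted at 0.558 to 60.4 CPM in the libraries. Together they had 840.0 to 2574 counts per library. Of the 7 copies 5 fell in Vdr-cKO after MCAO, against 1.64% of all genes. They were Gm29216 (log2 fold change -1.46), Gm10222 (-1.17), Gm28439 (-0.87), Gm10925 (-0.75) and Gm28437 (-0.60), with adjusted p of 0.00478 to 0.0401 from edgeR. The others were Gm28438 at -1.78 (adjusted p = 0.0527 from edgeR) and Gm28661 at -0.36 (adjusted p = 0.102 from edgeR). In control mice 5 of the 7 copies rose after MCAO, against 31.2% of all genes. In Vdr-cKO mice 0 rose and 1 fell, against 29.3% and 28.8% of all genes. As most of these reads cannot be placed by sequence, the copies are no independent measurement.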

How the data were processed

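RNA of 16 libraries was analysed from the raw counts per gene that the authors deposited, whole numbers for 32166 genes. GRCm38 is the build in the submitters' processing notes, which also list HISAT2 2.1.0, TopHat, limma and bcl2fastq, with no order. The tool for counting, the annotation, strand setting, read length and handling of reads with several matches are not given in the sources used here, and such reads bear directly on the mtDNA genes that have a chromosome 1 copy.

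Genes were filtered with filterByExpr, libraries scaled by TMM, and each pair of groups fitted alone with the quasi-likelihood test of edgeR 4.0.16 (R 4.3.3). The interaction was fitted on all 16 libraries. P-values were adjusted by Benjamini-Hochberg over all genes tested, and "rose", "fell" or "called" means an adjusted p under 0.05. Levels are CPM scaled by TMM over 16 libraries. Shares and ratios over the members have no test. Positions and sequences are from GENCODE M21 (GRCm38). Shared sequence was counted as exact 100-base stretches found in another M21 transcript.

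The members and gene lists were chosen with earlier results of these data known. All 15 members are named, with up to 4 genes of each list of smallest adjusted p for genotype after MCAO. Alternatives were other scalings (RLE, upper quartile, total counts, nuclear genes only), filters (none, or 10 counts or more in each of the libraries), DESeq2 1.42.0, limma-voom (limma 3.58.1), all 16 libraries in 1 fit, a replicate block, each library left out, and sham control replicates 2, 4 and 5 left out. Chosen after seeing the data were a fit that left out replicates 1 and 2 of MCAO Vdr-cKO and a fit in which counts of the chromosome 1 copies were added to their originals. The tests were tried on simulated data. Samples were not treated as paired.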

Additional observations from a re-analysis of the deposited data

Results flagged for a closer look

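For 4 genes the effect of genotype differed between the surgeries by the interaction test of edgeR. The differences of log2 fold changes were -1.27 for mt-Nd1 (adjusted p = 0.00874), -1.20 for mt-Cytb (adjusted p = 0.00869), -1.25 for mt-Nd5 (adjusted p = 0.0229) and -1.03 for mt-Nd4 (adjusted p = 0.0413). In each of the 4 genes the value after MCAO was below 0 and the value after sham surgery above 0. None of the values after sham surgery passed the test (adjusted p 0.355 to 0.774 from edgeR). All 4 interaction calls were lost without sham control replicates 2, 4 and 5. They were also lost without MCAO Vdr-cKO replicates 1 and 2, in a fit chosen after the values were seen.

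In 2 of 48 groups of libraries, 1 library lay far from the rest of its group, and chance alone gives about 1 in 20. mt-Atp8 was at 0.417 CPM in sham control replicate 1, against 0.119 to 0.191 CPM in the other sham control libraries, on 7 counts or fewer. mt-Nd4l was at 2.18 CPM in MCAO Vdr-cKO replicate 2, against 3.21 to 3.40 CPM in the other 3.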

How the results depend on the processing

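Under all alternatives, every called member kept its direction. With a required log2 fold change of 1, 0 genes were higher and 0 lower for genotype after MCAO, 1 was higher with surgery in control, and 1 was higher and 0 lower in Vdr-cKO mice. Without MCAO Vdr-cKO replicates 1 and 2 (chosen after seeing the data), 3 were lower for genotype after MCAO, 1 higher with surgery in Vdr-cKO and 0 lower in the interaction. Without sham control replicates 2, 4 and 5, 6 were higher with surgery in control, and 0 were lower and 1 higher in the interaction. Scaling by total counts gave 5, and upper quartile scaling 7, higher with surgery in control, and either gave 1 higher in Vdr-cKO mice, as did the fit of all 16 libraries. These scalings moved the median of all genes to -0.29 and -0.24 in control and to -0.27 and -0.20 in Vdr-cKO mice, and no filter moved it to -0.13 in control. In the interaction DESeq2 gave 7 lower and 1 higher, and no filter 8 lower and 1 higher. With 1 library left out, the counts ran from 4 to 10 lower and 1 to 1 higher for genotype after MCAO, 0 to 0 after sham, 8 to 13 higher with surgery in control, 1 to 2 higher and 3 to 6 lower in Vdr-cKO mice, and 2 to 8 lower and 0 to 0 higher in the interaction. Without sham control replicate 3 the interaction gave 8 lower. The mean shares of counts then ran from 1.28% to 1.55% in sham control, 1.72% to 2.11% in sham Vdr-cKO, 1.96% to 2.102% in MCAO control and 1.22% to 1.35% in MCAO Vdr-cKO. With the 100 most counted nuclear genes left out, they were 2.32%, 2.56% and 1.63% in the last 3 groups.

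A replicate block left 2 genes lower in the interaction, mt-Nd1 and mt-Cytb. The numbers do not pair the libraries, since the deviations of same-numbered libraries correlated at -0.26 to 0.28.

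Among uncalled genes, the log2 fold change of mt-Rnr1 after sham was 0.025 in the fit of all libraries, 0.016 with limma-voom and 0.015 with total counts. It ran from -0.14 to 0.18 with 1 library left out and was -0.38 without sham control replicates 2, 4 and 5. With surgery in control, mt-Nd2 was at -0.12 and mt-Nd4l at -0.050 without sham control replicates 2, 4 and 5, and mt-Nd4l at -0.012 with total counts. mt-Co1 in Vdr-cKO mice was at -0.10 with total counts and -0.025 with upper quartile scaling. The causes were not tested.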
